A study of Danio rerio with 6 samples.

Results

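The genes described here are 5 early-response genes of the zebrafish embryonic kidney: the immediate early transcription factor genes junbb, klf6a and egr3, and the NF-kappaB feedback genes nfkbiab and nfkbiz. They were taken by name from a table of gene counts and are 5 of its 10022 rows. They had been picked from an earlier comparison of mutant and control libraries in these same data. Their levels and fold changes between those groups are therefore given as a description, with no test.

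RNA was sequenced from tissue cut by laser from the distal part of the pronephric tubule, the tube of the first kidney, in embryos aged 48 hours post fertilization. The epcam mutant group has 3 libraries from embryos homozygous for the allele hi2151 (epcamhi2151/hi2151), and the control group has 3 libraries from epcam+/+ embryos. Both groups also carry Tg(wt1b:GFP) as well as Tg(cdh17:GFP), which are fluorescent reporter transgenes. The sources used here do not say how many embryos or captures one library holds, so any p-value measures only how these samples vary, which may be partly technical.

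Immediate early genes are transcribed soon after a cell receives a signal, without a need for new protein. Many encode transcription factors, such as the Jun and Fos proteins that pair to form AP-1 and the zinc-finger proteins of the EGR and KLF families. NF-kappaB is a transcription factor that is held in the cytoplasm by I-kappaB proteins until a signal leads to their destruction. Genes for some I-kappaB proteins are themselves NF-kappaB targets, and their products then limit the response.

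After removal of a constant from each library, total counts ranged from 126861 to 250714 in the mutants and from 188022 to 746232 in the controls. Control 3 was sequenced in the same project as the 3 mutants, and controls 1 and 2 in another, per the library names. Levels are given in CPM, counts per 1000000 counts of a library after scaling by edgeR's TMM method. A floor of 3 counts equals 8.58 to 19.5 CPM in the mutants and 5.46 to 17.6 CPM in the controls. The targeted gene epcam had 0 counts in each mutant, against 10, 15 and 10 counts in the controls. The kidney cadherin gene cdh17, a marker of the tubule, was counted 300, 25 and 109 times in mutants 1 to 3 and 1406, 1515 and 22 times in controls 1 to 3. The summed level of 25 tubule markers was 13876, 3256 and 6190 CPM of the library total (no TMM factor was used for sums over gene lists) in the mutants and 11468, 10477 and 2638 in the controls, so mutant 2 and control 3 were lowest in their groups. In such bulk libraries fewer cells of a type and less RNA per cell cannot be told apart.

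Of the 5 genes, 4 passed the filter on low counts and entered the test across 3869 genes. Only mutant libraries took egr3 through this filter, all 3 of them and no control, so its difference in level was in part a condition of its being tested. The filter was met by junbb in 1 mutant and 2 controls, by klf6a in 2 mutants and 3 controls and by nfkbiab in 2 mutants and 1 control. It removed nfkbiz, which reached the limit in control 1 alone. Mutants and controls did not overlap in CPM for klf6a and egr3, 2 of the 5 genes, while 22.2% of all tested genes had groups that did not overlap. The quasi-likelihood test of edgeR, adjusted by the Benjamini-Hochberg method, called 0.0% of the 3869 genes (0 genes). Its unadjusted p was under 0.05 for 435 of them, or 11.2%, with 7.44% higher and 3.8% lower in mutants. DESeq2 called 214 of the same genes, or 5.53%.

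**Figure D1:**
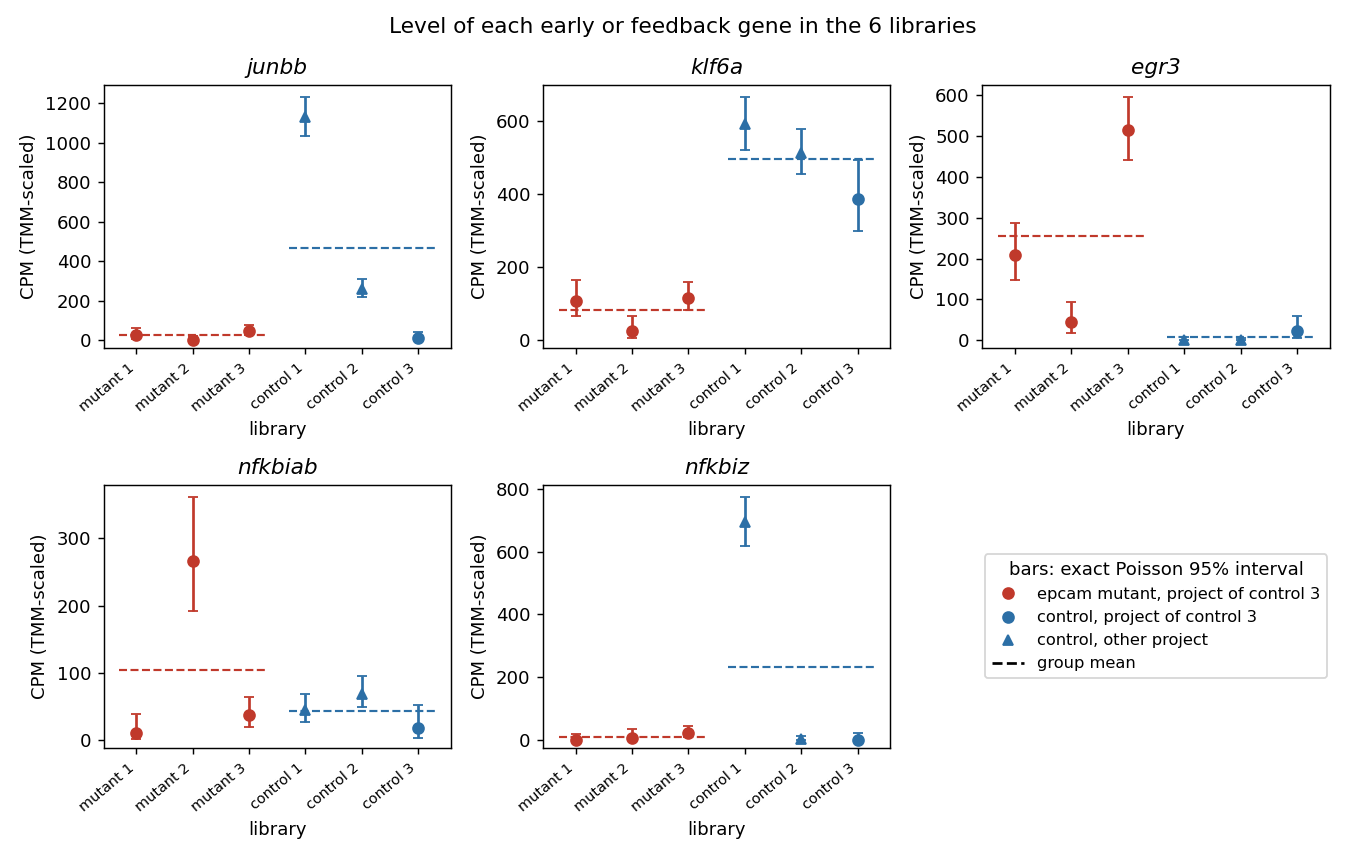
The vertical axis of each panel is the TMM-scaled level in CPM on a linear scale, and the horizontal axis gives the libraries, mutants first. Points are single libraries with exact Poisson 95% intervals, triangles mark controls 1 and 2 of the other sequencing project, and dashed lines are group means. Mutants lie below all controls for klf6a and above all controls for egr3, while the high control mean of nfkbiz comes from control 1 at 693 CPM.

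The junbb gene (ENSDARG00000104773, GRCz10 chromosome 3, 7768815 to 7770219, minus strand) encodes JunB, a Jun-family partner in AP-1. It was counted 5, 0 and 17 times in mutants 1 to 3, which is 26.8, 0 and 48.6 CPM. In controls 1 to 3 it was counted 511, 144 and 2 times, which is 1129, 262 and 11.8 CPM. Controls 1 and 2 were high, and control 3 lay inside the range of the mutants, so the groups overlapped. The means were 25.1 ± 24.3 CPM in mutants and 467 ± 586 CPM in controls (SD, n = 3 each), and the log2 fold change was -4.15 ± 1.70 (SE). Control 1 alone held 76.4% of the CPM summed over the 6 libraries, and without it the log2 fold change was -2.40. Against control 3, which had 2 counts, the pooled ratio of mutants to control was 2.71 (95% exact interval 0.667 to 23.8). The direction of the junbb difference was thus not the same in the comparison within 1 sequencing project. The interval there also includes a ratio of 1. The median over all tested genes was also higher in the fit within this project, at 1.16 (8035 genes), against -0.23 with all 6 libraries (3869 genes). The log2 fold change of junbb moved further than this median, from -4.15 to 1.09. Summed tubule markers were also lower in control 3 (2638 CPM) than in controls 1 and 2 (11468 and 10477). Control 3 is the only control of its project, so project and tubule content cannot be told apart among the controls.

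The jun family members nearest to junbb did not share 1 pattern. Its paralog junba had 0, 0 and 4 counts in the mutants and 68, 3 and 0 in the controls, and like junbb it was highest in control 1. The gene jund had 16.1, 0 and 40.02 CPM in mutants and 102, 187 and 94.1 CPM in controls. All 3 controls were above all 3 mutants for jund, a pattern with mutants below that 9.41% of tested genes had (log2 fold change -2.68 ± 1.44, edgeR adjusted p = 0.524). The level of jun itself was 75.1, 52.0 and 506 CPM in mutants and 294, 1132 and 306 CPM in controls. Mutant 3 was above 2 of the controls, and the adjusted p by edgeR was 0.701. Fos proteins pair with Jun proteins, and fosab had 21.5, 318 and 25.7 CPM in mutants and 2752, 3200 and 0 CPM in controls (adjusted p by edgeR 0.451). The stress-induced gene atf3 had 20, 0 and 0 counts in mutants and 32, 45 and 3 in controls. As with junbb, controls 1 and 2 stood above the other 4 libraries for fosab, and no count was found in control 3. Against control 3 alone, at a floor of 3 counts, the mean of the mutants was at least 6.91-fold higher for fosab. This bound rested on mutant 2, which held 49 of the 62 mutant counts. Mutants 1 and 3, at 21.5 and 25.7 CPM, were near the floor of control 3 (17.6 CPM).

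Of 23 AP-1 symbols listed, 12 are rows of the table, junbb included. Among the other 11, 6 were tested, 0 passed edgeR's test, and all 6 fitted log2 fold changes were below 0. The value for fosb, singled out after it was seen, was only -0.013, with means of 61.5 CPM in mutants and 61.3 CPM in controls. The median log2 fold change of the 6 was -1.07, against -0.23 over all tested genes. Over all 11 rows, in the fit without a filter where a gene was not tested, 1 log2 fold change was above 0 and 10 were below. Within the sequencing project of control 3, 4 were higher and 4 were lower of 8 tested, with a median of 0.23 against 1.16 over all tested genes. With the project as a term in the model 3 of 6 were higher, and the median was 0.23, against 0.58 over all genes. This is not a second check, since the group difference in that model also rests on control 3 as the only control. The summed level of the family without junbb was 539.9, 465 and 1268 CPM in mutants, against 3004, 4208 and 622 in controls. Control 3 was within the range of the mutants, and controls 1 and 2 were above it. Controls 1 and 2 both exceeded the other 4 libraries for junbb and klf6a among the 5 genes and for jund and fosab among the 6 tested AP-1 relatives, a pattern found in 14.0% of all tested genes.

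2 further AP-1 relatives, picked here after their values were seen, went in opposite directions. The dimerization partner gene jdp2b had 1, 0 and 0 counts in mutants and 45, 282 and 6 in controls. Its pooled ratio of mutants to controls was 0.00510 (95% interval 0.000129 to 0.0286), and the authors' deposited table lists it with an FDR of 0.0287. Without control 2, which held most of the control counts, the ratio for jdp2b was 0.0177 (0.000440 to 0.103), and against control 3 alone it was 0.0411 (0.000893 to 0.339). The small Maf gene mafga had 7, 1 and 77 counts in mutants and 0, 0 and 1 in controls, a pooled ratio of 144 (25.2 to 5771). Without mutant 3 the ratio for mafga was 27.6 (3.70 to 1223), and against control 3 alone it was 21.0 (3.66 to 837). None of the 5 genes described here is among the 379 rows of the authors' deposited table.

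The klf6a gene (ENSDARG00000029072, GRCz10 chromosome 24, 4109697 to 4117128, minus strand) encodes a Kruppel-like zinc-finger transcription factor. It was counted 20, 4 and 41 times in mutants 1 to 3 and 268, 283 and 66 times in controls 1 to 3. These counts correspond to 107, 26.0 and 117 CPM in mutants and 592, 515 and 388 CPM in controls. Every control was above every mutant, and the lowest control interval (300.1 to 494 CPM, control 3) lay above the mutant interval that reached highest (65.6 to 166 CPM, mutant 1). These intervals cover counting error in single libraries only. Group means were 83.5 ± 50.1 CPM in mutants and 498 ± 103 CPM in controls (SD, n = 3 each). The log2 fold change was -2.56 ± 1.22 (SE), and it was -2.20 against control 3 within the shared sequencing project. With any 1 library left out it stayed between -3.05 and -2.15. Of the 5 genes, klf6a was the least concentrated in 1 library, with 33.9% of the CPM summed over the 6 libraries in its highest library, control 1.

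Markers of gut, liver and yolk were, as a sum, lower in every mutant than in every control, as klf6a was. Their summed level over 26 genes was 719.9, 1167 and 1288 CPM of the library total in mutants and 11406, 13776 and 115992 CPM in controls, and 3 of the 26 had no count in any mutant. Within the groups the order differed: control 3 was highest for these markers and the lowest control for klf6a. Among the mutants, mutant 1 was lowest for the markers and mutant 2 for klf6a. Keratinocyte and periderm markers were high in control 3 alone, at 44888 CPM, against 3605, 1238 and 1324 CPM in mutants and 2823 and 3744 CPM in controls 1 and 2. The part of these cell types in the klf6a level was not tested.

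The paralog klf6b was nearly absent, with 0, 1 and 0 counts in mutants and 0, 21 and 0 in controls. Of the other Kruppel-like genes that were tested, klf13 came closest to passing edgeR's test, at 37.6, 52.0 and 82.9 CPM in mutants and 455, 34.6 and 253 CPM in controls (log2 fold change -2.09 ± 1.32, adjusted p = 0.599). Control 2 lay below all mutants for klf13. The gene klf7b had 91.2, 39.0 and 114 CPM in mutants and 30.9, 486 and 52.9 CPM in controls, and only control 2 was above the mutants. For klf9, which had 10.7, 39.0 and 106 CPM in mutants and 28.7, 246 and 0 CPM in controls, and for klf2a, with 0, 45.5 and 54.3 CPM in mutants and 44.2, 146 and 5.88 CPM in controls, the groups also overlapped. Of the lower ones, klf7a had 10, 0 and 45 counts in mutants and 0, 0 and 2 in controls, and klf17 had 0, 19 and 70 counts in mutants and 5, 0 and 3 in controls. By contrast klf11b had 3, 0 and 6 counts in mutants and 5, 122 and 13 in controls. The remaining klf4, klf11a, klf15 and klf18 stayed at or below 18 counts in every mutant and 23 counts in every control, and their groups overlapped. The library that stood highest thus differed from gene to gene in this family.

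The egr3 gene (ENSDARG00000089156, GRCz10 chromosome 8, 50738574 to 50744862, plus strand) encodes a zinc-finger factor of the EGR family that is known for roles in neurons, muscle spindles and lymphocytes of mammals. It was counted 39, 7 and 180 times in mutants 1 to 3 and 0, 0 and 4 times in controls 1 to 3. In CPM this was 209, 45.5 and 515 in mutants and 0, 0 and 23.5 in controls. All mutants were above all controls, as for 12.8% of tested genes, but the interval of mutant 2 (18.3 to 93.7 CPM) overlapped that of control 3 (6.41 to 60.2 CPM). Means were 256 ± 238 CPM in mutants and 7.84 ± 13.6 CPM in controls (SD, n = 3 each), with a log2 fold change of 5.27 ± 1.92 (SE). Within the project of control 3 the log2 fold change was 3.42, against a median of 1.16 over all genes tested there. Without control 3 the controls had no count, and the mean of the mutants was at least 42.4-fold higher against a floor of 3 counts in each remaining control. Mutant 3 held 64.9% of the summed CPM, and without it the log2 fold change was 4.14.

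The only other listed EGR gene in the table, egr1, had 0, 0 and 12 counts in mutants and 18, 45 and 2 in controls, so it was highest where egr3 had no count. Across the EGR and KLF list without klf6a and egr3, 13 rows were in the table, 6 were tested, 1 was higher and 5 were lower, and 0 passed edgeR's test. Their median log2 fold change was -0.89, against -0.23 over all tested genes, and it was 0.46 without control 2 (0.23 over all genes). Over all 13 rows, in the fit without a filter where a gene was not tested, 4 log2 fold changes were above 0 and 9 below. The neuronal activity gene npas4a, chosen after its values were seen, had 26.8, 45.5 and 352 CPM in mutants and 8.83, 12.7 and 35.3 CPM in controls, and like egr3 it was highest in mutant 3 (adjusted p = 0.457 by edgeR without a filter).

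As a sum, neuron and glia markers were, like egr3, higher in every mutant than in every control. The summed level of the 13 listed markers in the table was 1121, 1561 and 1938 CPM of the library total in mutants and 328, 57.6 and 85.1 in controls. Within the groups the order differed from that of egr3. Mutant 2 was lowest for egr3 but not for the markers, and control 1 was the highest control for the markers with no count of egr3. Of these 13, 12, 12 and 13 were detected in mutants 1 to 3 and 5, 4 and 6 in controls 1 to 3, and 6 had 0 counts in all controls. Those 6 were neurod6b, nova1, zic2a, zic1, drd4a and slc17a6a. Over all 10022 rows, 7879, 7771 and 9074 were detected in mutants 1 to 3 and 7247, 7477 and 7459 in controls 1 to 3. The share of all rows with 0 counts in all controls is not given here. By contrast gad2 had 3, 0 and 3 counts in mutants and 125, 7 and 0 in controls. The sum of leukocyte markers was higher in the mutant libraries too, at 1144, 780.4 and 1771 CPM, against 159, 127 and 340.4 CPM in controls over 10 listed genes. Not every one of the 10 was higher, as spi1b had 10, 36 and 7 counts in mutants and 28, 5 and 14 in controls. A single gene, csf1ra, had 200 counts in mutant 3. The part of either cell type in the egr3 level was not tested.

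**Figure D2:**
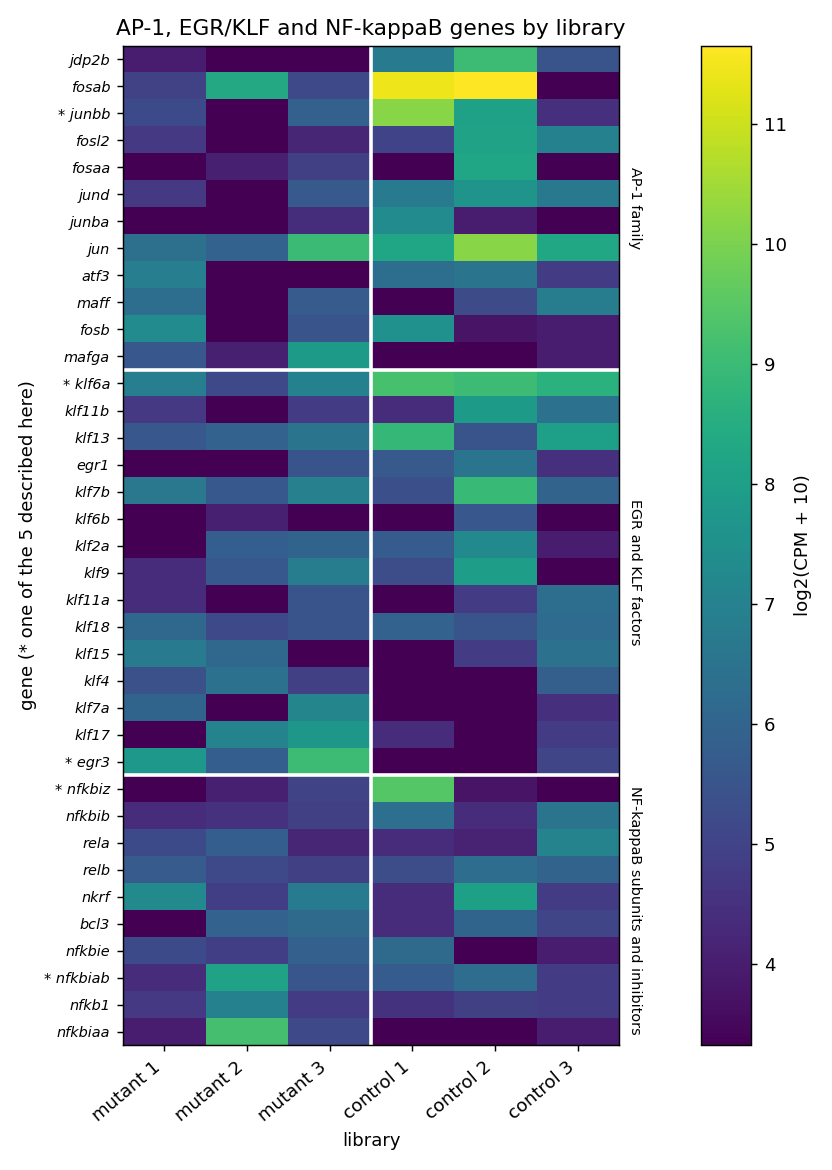
Colour gives log2(CPM + 10) for every AP-1, EGR or KLF, and NF-kappaB subunit or inhibitor gene in the table (rows, ordered in each family by the difference of group means) in the 6 libraries (columns, mutants first). Asterisks mark the 5 genes; junbb and fosab are bright in controls 1 and 2, nfkbiz in control 1 only, and nfkbiab with nfkbiaa in mutant 2.

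The nfkbiab gene (ENSDARG00000007693, GRCz10 chromosome 17, 12788568 to 12792670, plus strand) encodes an I-kappaB alpha, which binds NF-kappaB and keeps it out of the nucleus. It was counted 2, 41 and 13 times in mutants 1 to 3 and 20, 38 and 3 times in controls 1 to 3. The levels were 10.7, 266 and 37.2 CPM in mutants and 44.2, 69.1 and 17.6 CPM in controls. Mutant 2 was the highest library and mutant 1 the lowest, and the controls lay between them. Means were 105 ± 141 CPM in mutants and 43.6 ± 25.8 CPM in controls (SD, n = 3 each), and the log2 fold change was 1.22 ± 1.41 (SE). Its sign rested on mutant 2, which held 59.8% of the summed CPM: without it the log2 fold change was -0.85.

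The duplicate gene nfkbiaa stood out in the same library. It had 1, 88 and 9 counts in mutants, which is 5.37, 572 and 25.7 CPM, and 0, 0 and 1 counts in controls. The pooled ratio of mutants to controls was 167 (95% interval 29.2 to 6644), and it was 21.9 (3.11 to 949) without mutant 2. The edgeR test without a filter gave nfkbiaa an adjusted p of 0.106. Mutant 2 was thus the highest library for both I-kappaB alpha genes, and it was the shallowest of the 6, with 126861 counts.

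The nfkbiz gene (ENSDARG00000102097, GRCz10 chromosome 1, 18716 to 23865, plus strand) encodes I-kappaB zeta, a nuclear member of the family that acts on transcription of inflammatory genes in mammals. It was counted 0, 1 and 8 times in mutants 1 to 3 and 314, 2 and 0 times in controls 1 to 3. In CPM the mutants had 0, 6.50 and 22.9 and the controls 693, 3.64 and 0. Control 1 was the 1 high library, at 30.3 times the next one (mutant 3), and controls 2 and 3 lay inside the range of the mutants. Means were 9.79 ± 11.8 CPM in mutants and 232 ± 399 CPM in controls (SD, n = 3 each). The log2 fold change in the fit without a filter was -4.44 ± 1.91 (SE). Without control 1 the pooled ratio of mutants to controls turned to 4.69 (95% exact interval 0.972 to 44.6), on 9 and 2 counts.

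Both nfkbiz and junbb were highest in control 1, as was junba. In that library skeletal muscle markers made up 32031 CPM of the library total over 25 genes, against 5185, 9743 and 15336 in mutants and 1537 and 1085 in controls 2 and 3. Whether muscle RNA contributed to the levels of these genes was not tested. Muscle markers were also high in mutant 3, where junbb was at 48.6 CPM and nfkbiz at 22.9 CPM.

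The other NF-kappaB subunit and inhibitor genes were counted few times. Of 14 listed symbols 10 are in the table, and among the 8 besides nfkbiab and nfkbiz only 2 were tested and 0 passed. Over these 8 rows, in the fit without a filter where a gene was not tested, 4 log2 fold changes were above 0 and 4 below. The subunit gene relb had 42.9, 26.0 and 20.01 CPM in mutants and 28.7, 69.1 and 52.9 CPM in controls (edgeR adjusted p = 0.873). The repressing factor gene nkrf had 145, 19.5 and 94.3 CPM in mutants and 11.04, 253 and 17.6 CPM in controls (adjusted p = 0.980 by edgeR). Groups overlapped for both genes. The inhibitor genes nfkbib, nfkbie and bcl3 had 2, 2 and 7, then 5, 3 and 17, then 0, 8 and 22 counts in mutants 1 to 3. The same 3 genes had 33, 6 and 14, then 29, 0 and 1, then 5, 30 and 4 counts in controls 1 to 3.

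Genes that act upstream of NF-kappaB were divided in direction over all rows listed, and most of those abundant enough to test were higher in the mutant libraries. Of 50 listed receptors, adaptors, kinases, deubiquitinases and other regulators 21 are in the table and 6 were tested. Of these 5 were higher and 1 was lower in mutants, and 0 passed edgeR's test. The 5 included the deubiquitinase genes usp4 and otulina. Over all 21 rows, in the fit without a filter where a gene was not tested, 11 log2 fold changes were above 0 and 10 below. The median log2 fold change of the 6 was 2.87, against -0.23 over all tested genes, and it lay at 1.62 within the project of control 3 (14 genes tested), against 1.16 over all genes there. The adaptor gene ticam1, which links Toll-like receptors to NF-kappaB and interferon signalling, had 182, 182 and 197 CPM in mutants and 6.63, 7.28 and 0 CPM in controls. It had a log2 fold change of 5.08 ± 1.53 and an adjusted p of 0.194 in edgeR's test, with all mutants above all controls. The authors' deposited table lists ticam1 with an FDR of 0.0226 and the signalling gene traf3, named here after its values were seen, with 0.0346.

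The receptor gene tlr1 had 826, 1196 and 88.6 CPM in mutants and 0, 25.5 and 70.5 CPM in controls (log2 fold change 4.49 ± 1.69, edgeR adjusted p = 0.318). The kinase adaptor gene tab2 had 69.8, 331 and 655 CPM in mutants and 11.04, 67.3 and 29.4 CPM in controls (3.27 ± 1.38, edgeR adjusted p = 0.383). The deubiquitinase gene usp4 had 91.2, 169 and 149 CPM in mutants and 90.5, 76.4 and 11.8 CPM in controls (edgeR adjusted p = 0.775). All mutants were above all controls for these 3 genes and for ticam1, 4 of the 6 tested, against 12.8% of all tested genes. Being high in mutants was in part a condition of their being tested, since ticam1 met the filter in 3 mutants and no control, and tlr1 and tab2 each met it in 3 mutants and 1 control. The deubiquitinase gene otulina had 0, 221 and 74.3 CPM in mutants and 2.21, 1.82 and 52.9 CPM in controls, and its groups overlapped. The summed level of the upstream list was 1979.8, 3256 and 2361 CPM of the library total in mutants, against 462, 537 and 729 in controls. Much of this sum came from single genes, with 154 and 184 counts of tlr1 in mutants 1 and 2 and 229 counts of tab2 in mutant 3. Summed leukocyte markers were likewise higher in every mutant, at 1144, 780.4 and 1771 CPM, than in every control, at 159, 127 and 340.4 CPM. Among the mutants, however, mutant 2 was highest for the upstream list and lowest for leukocyte markers. The part of leukocytes in the level of this list was not tested.

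Genes known as NF-kappaB targets were mostly too low to test. Of 38 listed, 12 are in the table. Over these 12 rows, in the fit without a filter where a gene was not tested, 1 log2 fold change was above 0 and 11 were below. Of all 3869 tested genes, 1754 were above 0 and 2115 below. With control 3 as the only control, the fitted values of the 12 rows lay on both sides of 0. Examples, named after their values were seen, are birc5a at 2.22 and irf1b at -1.86. Many of these values rest on few counts. Only 1 of the 12, the survival gene bcl2l1, was tested. It had 10.7, 13.0 and 65.8 CPM in mutants and 86.1, 106 and 159 CPM in controls (log2 fold change -1.91 ± 1.32, edgeR adjusted p = 0.621). The summed target list was at 139, 363 and 303 CPM of the library total in mutants and 601, 327 and 489 in controls, so mutant 2 was above control 2 and the groups overlapped. The mitochondrial superoxide dismutase gene sod2, named after its values were seen, had 3, 1 and 11 counts in mutants and 181, 52 and 0 in controls, again high in controls 1 and 2.

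**Figure D3:**
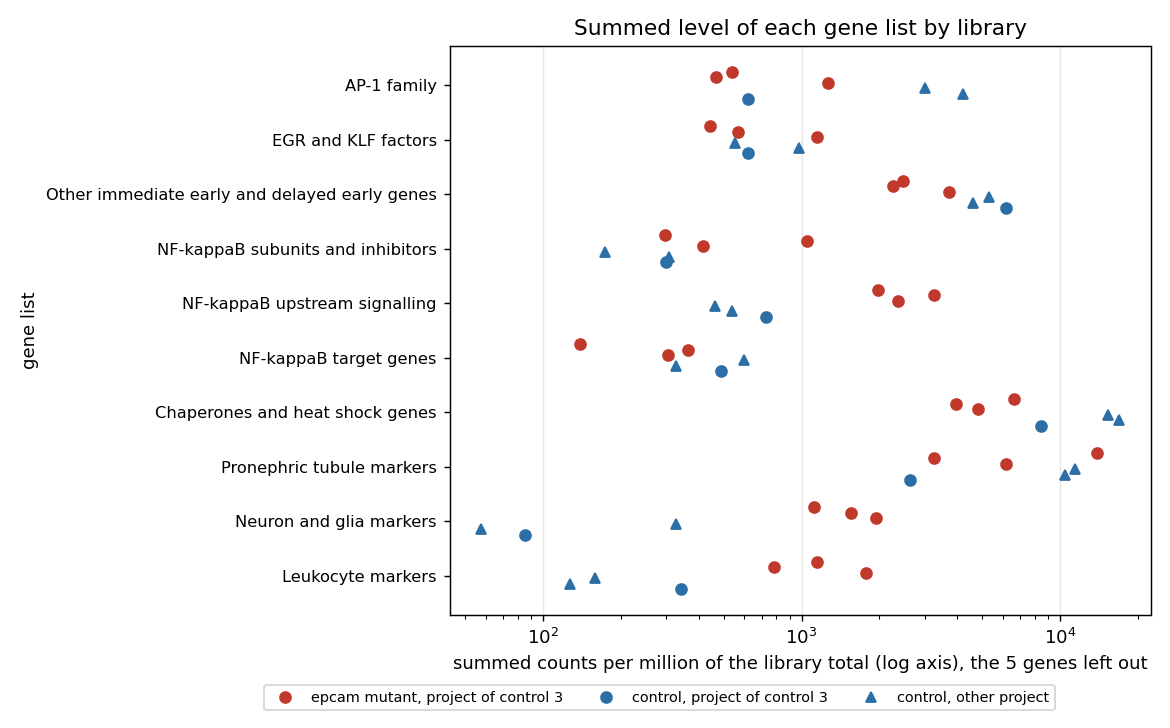
The horizontal axis is the summed level of each gene list in CPM of the library total on a log scale, without the 5 genes. Red circles are mutants, the blue circle is control 3 and blue triangles are controls 1 and 2; control 3 sits with the mutants for the AP-1 family, and the mutants sit above all controls for NF-kappaB upstream signalling, neuron and leukocyte lists.

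Beyond these families, 34 other immediate early and delayed early genes were in the table and 23 were tested, 5 higher and 18 lower in mutants, and 0 passed edgeR's test. Their median log2 fold change was -1.28, against -0.23 over all tested genes, with -0.19 against 1.16 when control 3 was the only control. Over all 34 rows, in the fit without a filter where a gene was not tested, 10 log2 fold changes were above 0 and 24 below. The antiproliferative gene btg1 had 69.8, 52.0 and 212 CPM in mutants and 864, 2367 and 2169 CPM in controls. Control 3 was close to control 2, and the log2 fold change of btg1 was -4.00 ± 1.34 (edgeR adjusted p = 0.245) and -4.27 within the project of control 3. The authors' deposited table lists btg1 with an FDR of 0.0372. Along with klf6a, btg1 was lower in every mutant than in every control of either project, a pattern that 9.41% of tested genes had. Of the 23 tested genes of this list, 3 had it: btg1 and, named after their values were seen, zfp36l1b and dusp6.

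The MAP kinase phosphatase gene dusp1 had 0, 19.5 and 74.3 CPM in mutants and 528, 23.7 and 694 CPM in controls (edgeR adjusted p = 0.408). The kinase gene pim1 had 37.6, 39.0 and 25.7 CPM in mutants and 976, 74.6 and 23.5 CPM in controls (edgeR adjusted p = 0.412), with control 1 far above the rest as for nfkbiz. The matricellular protein gene cyr61 had 0, 6.50 and 37.2 CPM in mutants and 170, 27.3 and 129 CPM in controls (edgeR adjusted p = 0.540). Groups overlapped for all 3 genes. Of the more abundant ones, cebpd had 365, 13.0 and 80.0 CPM in mutants and 1137, 217 and 417 CPM in controls, and the RNA-binding protein gene zfp36l1a had 252, 149 and 140.1 CPM in mutants and 229.7, 504 and 682 CPM in controls.

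In the list of MAP kinase and serum response genes, which carry signals to the immediate early genes, 26 were in the table and 12 were tested, 4 higher and 8 lower, and 0 passed edgeR's test. The median was -0.81, against -0.23 over all tested genes, but 0.85 within the project of control 3, against 1.16 there. Over all 26 rows, in the fit without a filter where a gene was not tested, 8 log2 fold changes were above 0 and 18 below. The transcription factor genes creb1b and atf1 differed in direction. Levels of creb1b were 75.1, 149 and 354 CPM in mutants and 33.1, 3.64 and 23.5 CPM in controls (log2 fold change 3.26 ± 1.45, edgeR adjusted p = 0.410). Since creb1b met the filter in 3 mutants and no control, being high in mutants was in part a condition of its being tested. Levels of atf1 were 5.37, 45.5 and 28.6 CPM in mutants and 53.0, 260.2 and 118 CPM in controls (-2.43 ± 1.39, edgeR adjusted p = 0.556). The serum response cofactor genes mkl1b and mkl2b peaked in different controls, mkl1b at 1946 CPM in control 3 and mkl2b at 769.6 CPM in control 2. Of the kinase genes, map3k5 had 23, 20 and 34 counts in mutants and 8, 7 and 11 in controls, which in CPM left all mutants above all controls, and map3k1 had 91.2, 169 and 274 CPM in mutants and 239, 255 and 23.5 CPM in controls.

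Several genes of a list of chaperones and heat shock genes were highest in controls 1 and 2, as junbb was. Of 17 listed chaperones present, 8 were tested, 1 higher and 7 lower in mutants, and 0 passed edgeR's test, with a median of -1.66 against -0.23 over all tested genes. The 1 higher gene met the filter in 3 mutants and no control, so being high in mutants was in part a condition of its being tested. Over all 17 rows, in the fit without a filter where a gene was not tested, 4 log2 fold changes were above 0 and 13 below. Among the 4 was the heat shock gene hsp70l, named after its values were seen. It had 1, 36 and 48 counts in mutants and 5, 6 and 0 in controls. Controls 1 and 2 stood above the other 4 libraries for 5 of the 8, against 14.0% of all tested genes, but for 3 of these 5 control 3 was also above every mutant, unlike for junbb. The mitochondrial chaperone gene hspa9 had 53.7, 117 and 71.5 CPM in mutants and 1919, 1847 and 82.3 CPM in controls (edgeR adjusted p = 0.296), and within the project of control 3 its log2 fold change was -0.03. The cytosolic chaperone gene hspa8 had 3644, 1820 and 2116 CPM in mutants and 10497, 15118 and 6643 CPM in controls. Here control 3 was above every mutant (edgeR adjusted p = 0.539). For hspa4b (48.3, 0 and 17.2 CPM in mutants, 208, 400.3 and 118 CPM in controls) and hsp90ab1 (1562, 637 and 738 CPM in mutants, 5557, 4743 and 1811 CPM in controls) the adjusted p by edgeR was 0.398 and 0.557.

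**Figure D4:**
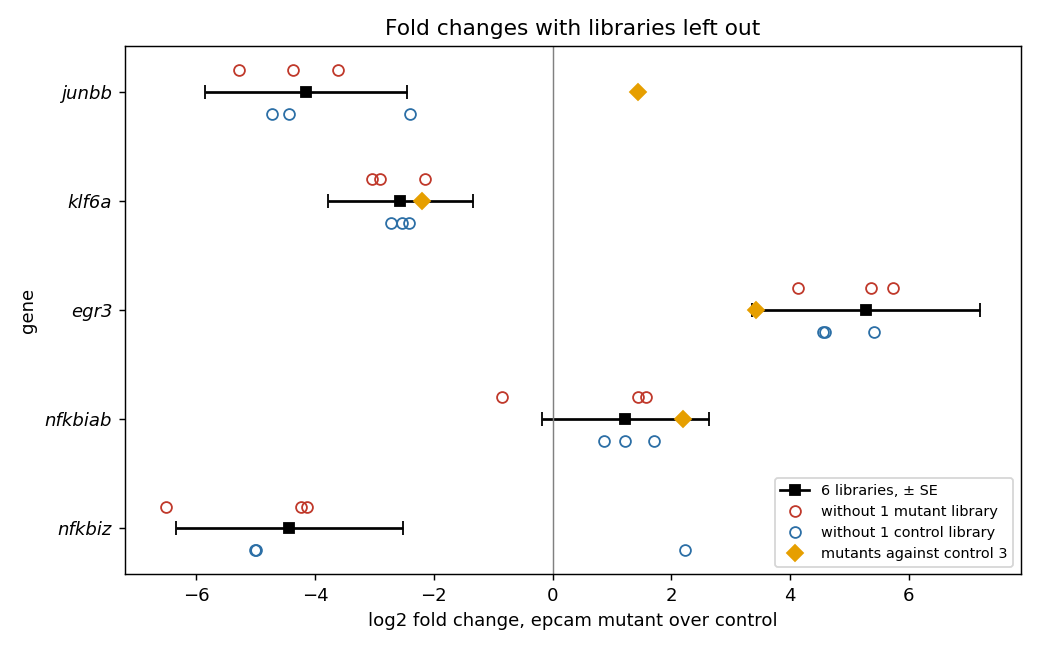
The horizontal axis is the log2 fold change of epcam mutant over control for each of the 5 genes (vertical axis). Squares with bars are the value over 6 libraries ± SE, open circles leave out 1 library, and diamonds set the mutants against control 3 alone; values resting on 1 to 3 counts in a group are pooled ratios, and egr3 without control 3 is a lower bound. The signs of klf6a and egr3 hold in all of these, while junbb, nfkbiab and nfkbiz each have a value on the other side of 0; nfkbiz has no diamond.

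The 5 genes did not vary together. Pearson's r between their log2(CPM + 10) profiles over the 6 libraries, given as a description, was 0.76 for junbb with klf6a and 0.76 for junbb with nfkbiz. It was -0.63 for klf6a with egr3 and -0.55 for junbb with egr3. Between nfkbiab and nfkbiz it was 0.07. These points share library depth and scaling, and controls 1 and 2 share a sequencing project.

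The genes most like each one were sought by the same measure among 3601 named genes that passed the filter (3602 for nfkbiz). For klf6a they were the myosin light chain gene myl12.1 (r = 0.987), the chromatin regulator gene jarid2b (0.987) and the tubulin gene tubb4b (0.982). The tubb4b level was 1105, 312 and 729 CPM in mutants and 6365, 5003 and 5103 CPM in controls. For egr3 they were the Wnt receptor gene fzd10 (0.988), the transcription factor gene fezf1 (0.980) and lmbr1l (0.978), and fzd10 had 268, 71.5 and 463 CPM in mutants and 15.5, 3.64 and 35.3 CPM in controls. For junbb they were the myosin gene myo6a (0.988), the sorting nexin gene snx30 (0.985) and the dehydrogenase subunit gene ogdha (0.9815). The mitochondrial complex III gene uqcrc2b (0.976), ect2 (0.970) and tm9sf4 (0.961) were nearest to nfkbiab, each highest in mutant 2. Nearest to nfkbiz were the elongin gene tceb3 (0.9855), the RNA decay gene smg6 (0.975) and rgs19 (0.969), each highest in control 1. Over these 6 libraries, 21 of the named genes exceeded 0.95 with junbb, 33 with klf6a, 10 with egr3, 4 with nfkbiab and 8 with nfkbiz.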

How the data were processed

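Per the labels' protocols, RNA was reverse transcribed with random and oligo(dT) primers, amplified as whole cDNA and sequenced without strand information, so reads of overlapping antisense genes would be mixed. No row of the table overlaps any of the 5 genes. The table is a filtered one, and genes left out of it were not checked for overlap. TopHat2 2.1.0, Trimmomatic 0.36.0, DESeq2 and the GRCz10 build are named in the submitters' processing notes. What counted the reads is not stated in the sources used here. The deposited values are whole-number counts per gene, but the lowest value of a library is 30, 31 and 17 in mutants 1 to 3 and 11, 0 and 32 in controls 1 to 3, shared by 9.46% to 27.7% of rows. After removal the upper quartiles were 14 to 28 in mutants and 13 to 45.8 in controls, against 45 to 45.8 in the values the authors deposited. The lowest value was subtracted as a constant added to each library, an inference from the values, and the values as deposited were tried as an alternative. The authors' deposited p-values (FDR) come without a fold change.

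Tests used R 4.3.3, edgeR 4.0.16 (quasi-likelihood, robust, TMM over all rows, filterByExpr by group), limma 3.58.1 and DESeq2 1.42.0, with Benjamini-Hochberg adjustment over all 3869 genes at 0.05. The filter limit was 45.6 CPM (counts per 1000000) of the library total in at least 3 libraries. The SE of a log2 fold change is its size over the root of the F statistic. Where a group had 1 to 3 counts, pooled counts are compared with an exact binomial 95% interval. Intervals and floors cover counting error only, since amplified reads are not independent molecules. The 5 genes and the 16 gene lists (8 process lists, 8 marker lists) were chosen with earlier results of these data known. List counts leave out the 5 genes.

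Genes named are the 5, epcam, the paralogs, the 4 tested genes of smallest p and the 3 of highest CPM in each other process list, and the 3 most alike to each gene. The text says where another gene of a process list was chosen after its values were seen. Single genes named from the marker lists fall outside this rule and were also named with their values known. Of the identifiers, 9641 of 10022 were in the reference name table. Libraries of 1 group correlated at 0.15 to 0.49 across genes, so none was a copy of another. Libraries of the same group were not always the most alike: mutant 1 correlated at 0.25 with control 1 and at 0.15 with mutant 2.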

Additional observations from a re-analysis of the deposited data

How the results depend on the processing

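The count of genes called by edgeR was 0 and stayed at 0 with any 1 library left out, on the values as deposited, with upper-quartile scaling, limma-voom, a mean count of at least 100, the replicate block, and with control 3 as the only control. It was 214 with DESeq2 on the same genes, 349 with DESeq2 without the filter (an alternative chosen after seeing the data), 53 with edgeR without a filter and 2 with the sequencing project as a term. Scaling moved the median log2 fold change of all 3869 genes: it was -0.23 with TMM, -0.32 with upper quartiles and 0.09 with DESeq2.

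With 1 library left out, log2 fold changes ranged from -5.28 to -2.40 for junbb, -3.05 to -2.15 for klf6a, 4.14 to 5.74 for egr3, -0.85 to 1.57 for nfkbiab (1.71 without control 2 and without a filter) and -6.52 to 2.23 for nfkbiz. The junbb value turned to 1.44 within the project of control 3, as a pooled ratio against the 2 counts of that library. The fit with project as a term gave 1.13 for junbb. The egr3 value was 3.43 with the project as a term, 3.42 within the project of control 3 and 2.69 on the values as deposited. The nfkbiab value turned to -0.042 on the values as deposited and to -0.0017 with limma-voom. It was 2.20 within the project of control 3, as a pooled ratio against the 3 counts of that library, and 2.53 in the fit with project as a term. The nfkbiz value, fitted without a filter, was -1.45 with limma-voom and -0.26 with the replicate block. Against control 3 alone nfkbiz has 9 counts in mutants and 0 in the control, and the mean level of the mutants is under the floor, so no bound is given. Its fitted values, 4.24 there and 4.76 with the project as a term, have the opposite sign and depend on the prior count. The causes were not tested.

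The labels do not say that the replicate numbers pair the libraries. Deviations of mutant and control libraries of the same number correlated at 0.08, -0.06 and 0.03. With 3 libraries per group these values cannot decide whether the libraries were paired. In the fit with the replicate block the log2 fold changes were -4.12 for junbb, -2.76 for klf6a, 6.16 for egr3 and 0.49 for nfkbiab. Of 15 genes named as most like the 5, 10 stayed among the first 10 with a pseudocount of 1 CPM and 9 with Spearman's correlation. Depth limits nfkbiz and junbb in mutants (9 and 22 counts in all), egr3 in controls (4 counts in all) and every value set against control 3 alone, which had 2 counts of junbb, 3 of nfkbiab and 0 of nfkbiz.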
